A study of Homo sapiens with 2 samples.

Results

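The genes described here are 33 genes of homologous recombination, of the Fanconi anaemia pathway and of the ATR-CHEK1-WEE1 checkpoint, chosen by name from a table of 60527 genes. Their mRNA was measured by RNA sequencing in 2 cultures whose label is SK-MEL-2, the name of a human melanoma line. One culture received DMSO and the other JNJ-7706621 at 1.75 µM, each for 48 h, and the labels give both the same medium with serum. The compound blocks cyclin-dependent kinases (CDKs) and Aurora kinases, and the series title is about keeping the RNA-binding protein AUF1 off mRNA. Each group is 1 library here, so no difference below has a replicate check and no test was made. The deposited table holds 2 further value columns, 1 named for each treatment, that match no sample label and were not analysed here.

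Homologous recombination repairs DNA double-strand breaks and broken replication forks by copying the sister chromatid. Broken ends are first resected to single strands, a search for the matching sequence on the sister then follows with the help of BRCA2, and the joined molecules are finally taken apart. The Fanconi pathway unhooks crosslinks between the strands and hands the break to recombination. The kinase ATR senses single-stranded DNA at stalled forks and activates CHEK1, which, with the kinases WEE1 and PKMYT1, holds CDKs inactive so that cells do not divide with unfinished DNA. Many of these genes are transcribed mainly in the S and G2 phases of the cell cycle.

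The values are FPKM (fragments per kilobase of exon and per 1000000 fragments of the library), a level that is comparable between genes because it is per length. Whole reads were recovered from the FPKM values for 33 of the 33 genes, from 10 to 2640 reads per gene and library, against library totals of 23377161 (DMSO) and 22817719 (JNJ-7706621). Intervals in parentheses are exact 95% Clopper-Pearson counting intervals of the FPKM ratio, JNJ-7706621 over DMSO. They cover counting error only. PCR copies of a molecule cannot be recognised without molecular identifiers, and the spread between cultures is not covered. In bulk RNA, fewer cells in a cell cycle phase and less mRNA per cell cannot be told apart.

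The cultures went against their label in most markers of the pigment lineage. TYR was listed at 0 in both libraries, SOX10 at 0.0105 FPKM with DMSO and 0 with JNJ-7706621, and MLANA at 0.2 and 0.19 FPKM. PMEL (2.0 and 3.71 FPKM) and MITF (2.65 and 2.27 FPKM) were present at low levels. The epithelial markers KRT8 (720.0 and 703 FPKM), KRT18 (1117 and 1123 FPKM) and EPCAM (55.7 and 59.4 FPKM) were abundant in both. The cultures are therefore called by their label only.

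Of these genes, 7 have a promoter with a feature that their choice did not use, a match to the E2F site within 50 bases of the transcription start. E2F factors switch on S phase genes. The site was searched as TTTCGCGC, TTTGGCGC, TTTCCCGC and TTTGCCGC on both strands, in RefSeq windows on GRCh38.p14 of 250 bases before to 50 bases after a start. The 5 windows below were picked after all matches were seen, as those of the 7 whose gene had a counting interval off 1, which leaves out RMI1 and FANCC. Capitals mark the E2F match, and each window is written 5′ to 3′ on the strand of its gene. They are XRCC2 (chr7:152676092-152676391, minus strand), EXO1 (chr1:241847954-241848253, plus), FANCD2 (chr3:10026187-10026486, plus), CLSPN (chr1:35769929-35770228, minus) and TOPBP1 (chr3:133661892-133662191, minus).
XRCC2: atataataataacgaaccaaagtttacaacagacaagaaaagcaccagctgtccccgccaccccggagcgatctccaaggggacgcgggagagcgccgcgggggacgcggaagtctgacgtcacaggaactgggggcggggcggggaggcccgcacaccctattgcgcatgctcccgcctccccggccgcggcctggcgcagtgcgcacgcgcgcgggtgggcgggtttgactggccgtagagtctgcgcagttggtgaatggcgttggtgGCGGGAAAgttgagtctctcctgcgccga
EXO1: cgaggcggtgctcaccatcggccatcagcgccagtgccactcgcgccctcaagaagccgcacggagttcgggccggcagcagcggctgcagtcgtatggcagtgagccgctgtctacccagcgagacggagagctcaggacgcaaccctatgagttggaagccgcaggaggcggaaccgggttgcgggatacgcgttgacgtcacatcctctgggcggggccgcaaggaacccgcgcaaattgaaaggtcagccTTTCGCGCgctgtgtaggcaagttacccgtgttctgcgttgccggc
FANCD2: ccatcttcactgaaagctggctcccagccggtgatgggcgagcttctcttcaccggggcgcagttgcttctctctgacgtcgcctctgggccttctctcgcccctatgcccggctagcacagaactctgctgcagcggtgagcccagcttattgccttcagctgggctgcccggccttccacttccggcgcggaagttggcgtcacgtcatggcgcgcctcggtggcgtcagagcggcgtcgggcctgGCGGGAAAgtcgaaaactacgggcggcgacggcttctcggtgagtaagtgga
CLSPN: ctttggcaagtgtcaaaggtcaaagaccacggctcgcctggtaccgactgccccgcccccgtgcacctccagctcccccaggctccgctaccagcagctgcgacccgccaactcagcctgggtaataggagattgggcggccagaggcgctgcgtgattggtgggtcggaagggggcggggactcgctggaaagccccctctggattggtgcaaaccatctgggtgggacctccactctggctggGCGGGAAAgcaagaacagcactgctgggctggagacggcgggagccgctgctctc
TOPBP1: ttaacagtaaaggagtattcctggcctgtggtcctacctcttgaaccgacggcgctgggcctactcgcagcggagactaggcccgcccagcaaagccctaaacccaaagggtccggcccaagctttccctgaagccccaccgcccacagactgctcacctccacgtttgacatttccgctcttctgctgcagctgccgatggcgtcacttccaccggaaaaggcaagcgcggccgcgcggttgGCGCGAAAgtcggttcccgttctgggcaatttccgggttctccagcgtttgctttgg

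The mRNA of XRCC2, EXO1, FANCD2 and CLSPN was higher in the JNJ-7706621 library and that of TOPBP1 alone was lower. These 5 were picked by their intervals, and whether the match goes with a direction was not tested. Of the 8 genes with a match anywhere in the window, 3 had a ratio below 1: TOPBP1, RMI1 and FANCC. The intervals of RMI1 and FANCC held 1. The table of windows held 27 of the 33 genes, in 38 windows, since some genes have several starts. An E2F match lay in 8 of the 38 windows (21.1%), against 3.31% of all 35116 windows and 5.06% of the 12331 windows of genes that reach a mean of 1 FPKM. DNA replication and G1/S genes held it in 24 of 55 windows (43.6%). In 7 of the 8 windows a match began within 50 bases of the start: at -5 in CLSPN, -2 in FANCD2, 5 in EXO1, 22 in XRCC2, -7 in TOPBP1, -32 in RMI1 and -46 in FANCC. FANCA had its match at -172. Of these 8 genes, 5 had a counting interval above 1, 1 below 1 and 2 across 1. Over all 27 genes with a window these counts were 14, 4 and 9. In CLSPN the E2F match shares bases with a GC box. The same windows held a CCAAT box (CCAAT) in 18 of 38 (47.4%, against 34.6% of all windows). They held a GC box (GGGCGG) in 29 (76.3%, against 45.0% of all windows). A CHR element (TTTGAA or TTCGAA) lay in 2 (5.26%, against 16.4% of all windows). These motifs were searched on both strands. Of the 12331 windows of genes that reach a mean of 1 FPKM, 67.1% held a GC box and 11.7% a CHR element. Against these windows both differences were smaller. Their CCAAT share was close to that of all windows. A match is a run of letters and was not measured as a binding site.

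**Figure D1:**
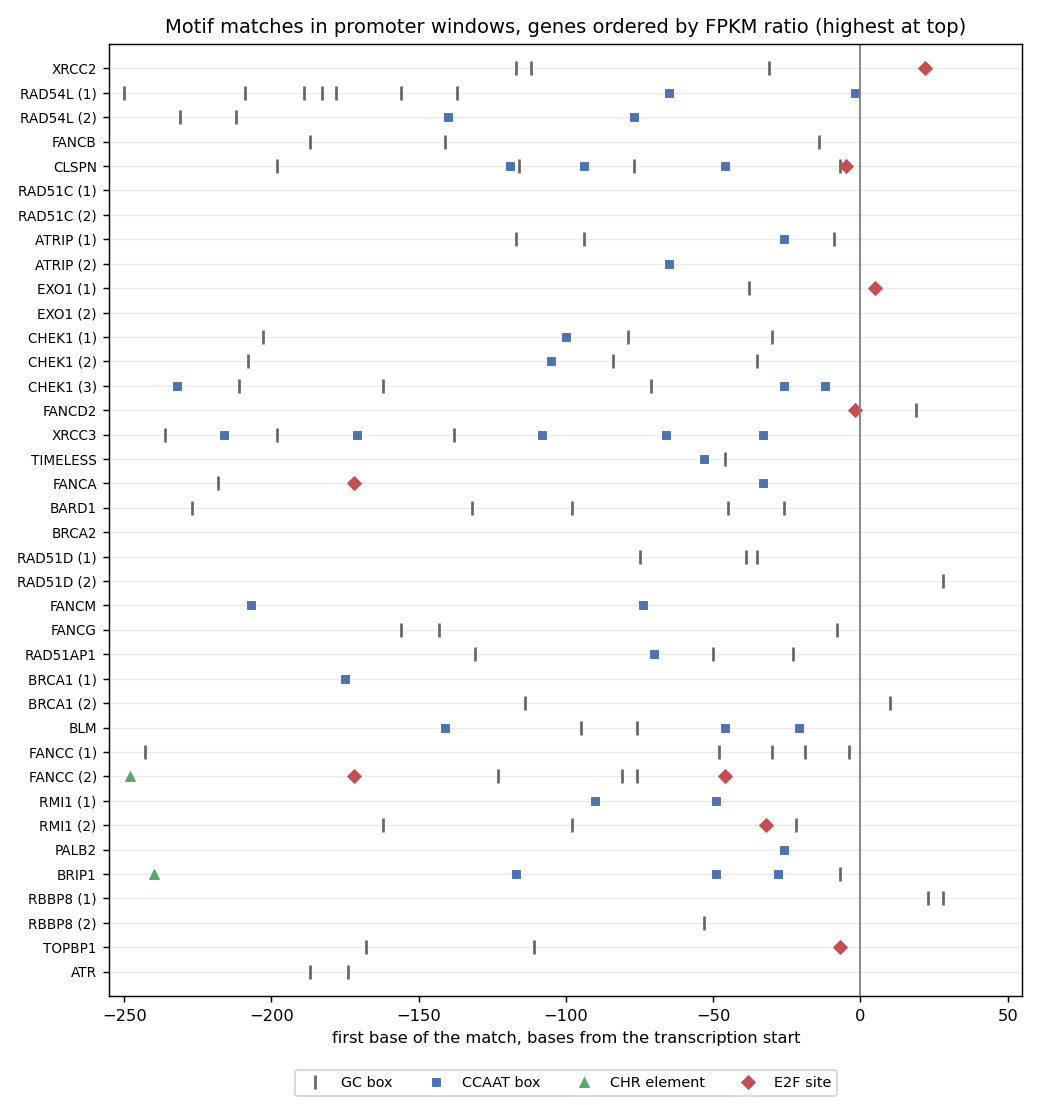
Matches of 4 motifs in the 38 promoter windows of 27 genes, by the distance in bases of the first base from the transcription start (line at 0). Genes are ordered by FPKM ratio, highest at the top, with the number of the window in parentheses for genes with several. E2F matches (red diamonds) begin within 50 bases of the start in 7 of 8 windows, in XRCC2, CLSPN, EXO1 and FANCD2 with ratios above 1 and in FANCC, RMI1 and TOPBP1 with ratios below 1. The counting intervals of FANCC and RMI1 hold 1.

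As a group the 33 genes were slightly higher in the JNJ-7706621 library, with wide differences between genes. A filter on the mean FPKM of the 2 libraries, at 1 or more, kept 27 of them. The 6 others were BRCA2, BARD1, RAD54B, FANCB, FANCM and CLSPN. For the 27 measured genes the median difference in log2(FPKM + 1), JNJ-7706621 minus DMSO, was 0.18, against 0.00 (-0.0032) over all 13241 genes that pass this filter, and 0.20 over all 33. Of the 27, 19 lay above 0 (70.4%, against 49.6% of all 13241), and 14 of 21 without the genes whose exons overlap other genes by over 10%. A gene was called at a log2 difference of 1 or more in either direction, that is 2-fold with a pseudocount of 1. By that rule 1 of the 27 was called higher, XRCC2, against 2.39% of all genes, and 0 were called lower, against 1.36%. At a threshold of 1.5-fold on the same scale 4 of the 27 were higher (14.8%, against 8.53% of all genes): XRCC2, RMI2, RAD54L and RAD51C. NBN was the 1 gene past it in the other direction (3.70%, against 6.77%).

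Beyond counting error the genes fell into a larger and a smaller set. For 15 of the 27 the interval lay above 1, against 32.8% of all 13108 measured genes with recovered reads, for 5 it lay below 1, against 33.2%, and for 7 it held 1. The 5 below were NBN, RBBP8, BRIP1, ATR and TOPBP1. Among the 6 genes with a mean FPKM under 1, BARD1, RAD54B, FANCB and CLSPN had an interval above 1. Reads of all 33 genes together made up 865.5 per 1000000 in DMSO (20234 reads) and 1034 per 1000000 in JNJ-7706621 (23583 reads), a ratio of 1.19 (1.17 to 1.22).

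**Figure D2:**
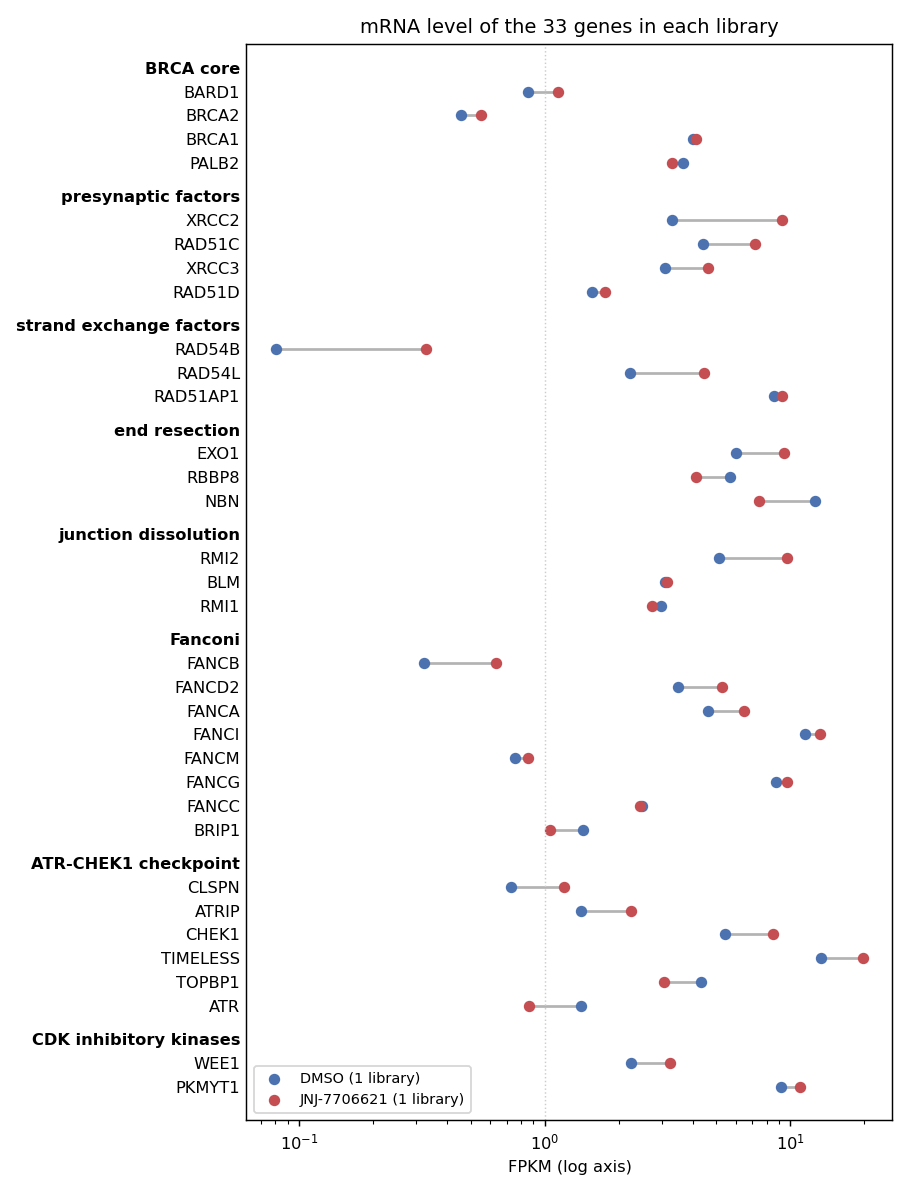
FPKM (log axis) of the 33 genes in the DMSO library (blue) and the JNJ-7706621 library (red), 1 library each, grouped by role. TIMELESS is the highest in both, and among the 27 measured genes XRCC2 has the longest shift upward and NBN the longest downward.

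Levels ranged widely within the set. In the DMSO library TIMELESS was the highest at 13.3 FPKM, followed by NBN at 12.6 and FANCI at 11.5 FPKM, and RAD54B the lowest at 0.0804 FPKM. In the JNJ-7706621 library TIMELESS stayed first, at 19.8 FPKM, while NBN stood 10th. XRCC2 stood 17th of the 33 in DMSO and 8th in JNJ-7706621.

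The genes that begin repair by resecting the broken end went in opposite directions. NBN (chr8:89933336-90003228), the subunit that brings the MRE11-RAD50 nuclease to the break, stood at 12.6 FPKM with DMSO and 7.43 FPKM with JNJ-7706621, a ratio of 0.590 (0.546 to 0.637) on 1813 and 1044 reads. It was the most lowered of the measured genes. RBBP8, which encodes the cofactor CtIP that starts resection, stood at 5.69 and 4.13 FPKM, a ratio of 0.727 (0.645 to 0.819). EXO1, the exonuclease that extends it, was higher instead, at 6.03 FPKM with DMSO and 9.44 FPKM with JNJ-7706621, a ratio of 1.57 (1.41 to 1.74). The partners of NBN, named here after their values were seen, were lower as well, though 33.2% of all measured genes had an interval below 1. MRE11 had a ratio of 0.885 (0.788 to 0.992, the upper bound just under 1). RAD50 had one of 0.546 (0.423 to 0.701), but at 0.745 and 0.407 FPKM it did not pass the filter of 1 FPKM. Its exons are shared with another gene over 79.7% of their length.

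In the BRCA core, which prepares resected DNA for strand exchange, 3 of 4 intervals held 1. BRCA1, the ubiquitin ligase that promotes resection, stood at 4.03 FPKM with DMSO and 4.14 FPKM with JNJ-7706621, a ratio of 1.03 (0.935 to 1.13). PALB2, which bridges BRCA1 and BRCA2, stood at 3.65 and 3.29 FPKM, with an interval of 0.779 to 1.04. BRCA2, the mediator of strand exchange, stood at 0.458 and 0.551 FPKM (0.953 to 1.52). In these 3 genes the libraries could not be told apart at this depth. The upper bounds, for counting error only and without the spread between cultures, were 1.52 in BRCA2 and 1.13 in BRCA1. BARD1, the partner of BRCA1, stood at 0.853 and 1.13 FPKM, a ratio of 1.32 (1.06 to 1.65) on 151 and 195 reads.

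The presynaptic factors XRCC2, XRCC3, RAD51C and RAD51D, which act before strand exchange, all had a ratio above 1, against 49.6% of all genes. In 3 of the 4 (75%) the interval lay above 1, against 32.8% of all genes. XRCC2 (ENSG00000196584, chr7:152644779-152676165, minus strand) stood at 3.3 FPKM with DMSO and 9.21 FPKM with JNJ-7706621, a ratio of 2.79 (2.48 to 3.15) on 373 and 1016 reads. RAD51C, which forms complexes with XRCC2 and with XRCC3, stood at 4.41 and 7.16 FPKM, a ratio of 1.62 (1.47 to 1.80). XRCC3, its partner in the smaller complex, stood at 3.09 and 4.62 FPKM, a ratio of 1.5 (1.34 to 1.67). RAD51D, the link between RAD51C and XRCC2, showed the smallest ratio of the 4 at 1.13 (0.988 to 1.30), from 1.55 to 1.76 FPKM. Summed over these 4 genes, reads went from 83.4 to 142.5 per 1000000, a ratio of 1.71 (1.61 to 1.81), the largest of the 8 roles. Of the 1950 and 3252 reads in this sum, XRCC2 gave 373 and 1016, so the ratio rests strongly on 1 gene. Exons of KLC1 on the opposite strand overlap 76.7% of the exon length of XRCC3, and whether counting used strand is not given in the sources used here. KLC1 itself stood at 1.5 and 2.1 FPKM, and its part in the XRCC3 value was not tested.

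Among the strand exchange factors, RAD54L and RAD54B had intervals above 1 and RAD51AP1 did not. RAD54L, a motor that remodels DNA during strand exchange, stood at 2.22 FPKM with DMSO and 4.46 FPKM with JNJ-7706621, a ratio of 2.01 (1.70 to 2.38). It missed the 2-fold rule because its log2 difference with the pseudocount was 0.76. RAD51AP1, which promotes joint molecule formation, was among the more abundant genes and stood at 8.55 and 9.22 FPKM, with an interval of 0.954 to 1.22. RAD54B, the relative of RAD54L, rested on 10 and 40 reads, a ratio of 4.10 (2.01 to 9.19), and exons of FSBP overlap 59.1% of its exon length, so its value is uncertain. For RAD54L the overlap, with LRRC41 on the opposite strand, was 25.1%, and LRRC41 stood at 6.25 and 6.63 FPKM.

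In the complex that dissolves joined DNA molecules, 1 subunit stood apart. RMI2, a small OB-fold subunit that stabilises the complex, stood at 5.12 FPKM with DMSO and 9.65 FPKM with JNJ-7706621, a ratio of 1.89 (1.67 to 2.12). BLM, its helicase, stood at 3.08 and 3.16 FPKM on 480 reads in each library, a ratio of 1.02 (0.901 to 1.17). RMI1, which binds RMI2 and the topoisomerase, stood at 2.98 and 2.72 FPKM, with an interval of 0.759 to 1.10. The interval of RMI2 lies wholly above those of BLM and RMI1.

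**Figure D3:**
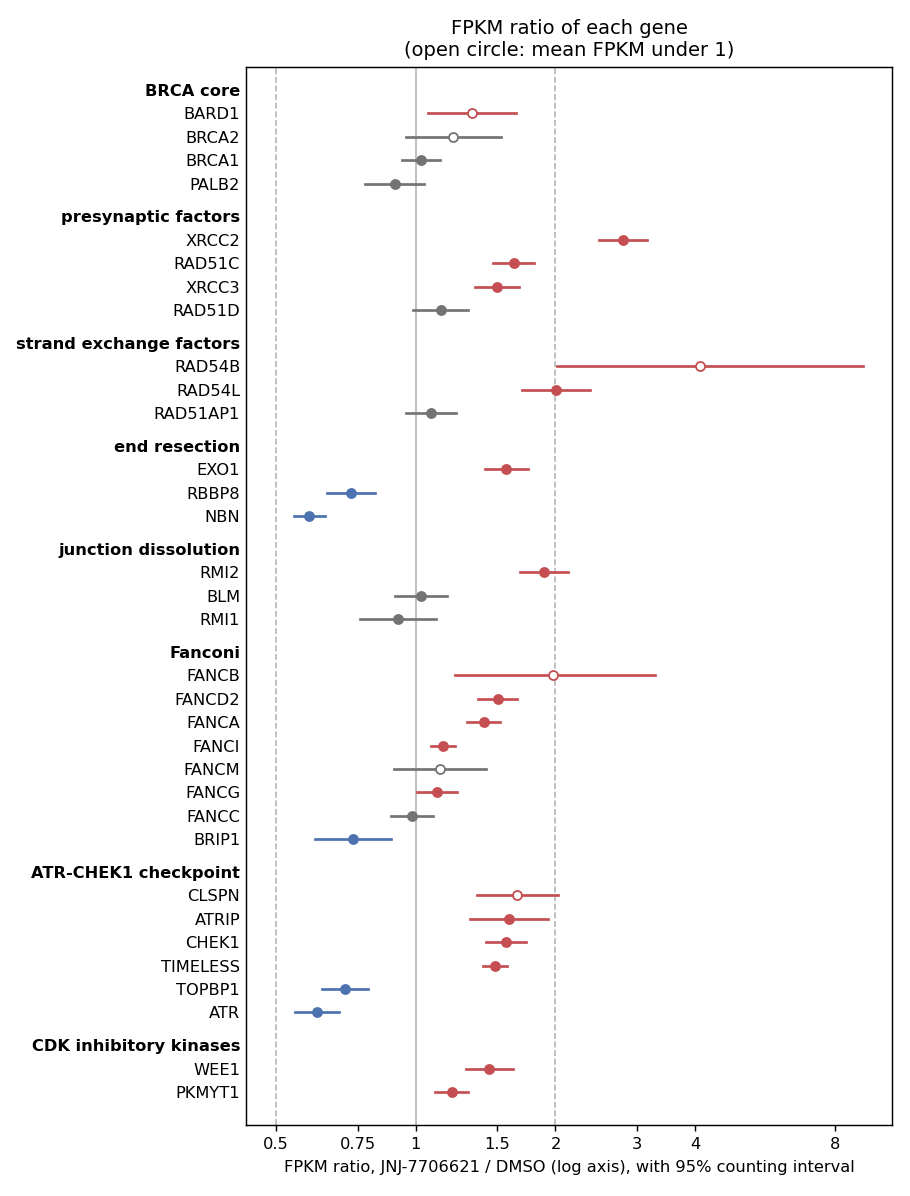
FPKM ratio, JNJ-7706621 over DMSO (log axis), of the 33 genes with 95% counting intervals, grouped by role. Red intervals lie above 1, blue below 1 and grey ones hold 1, and open circles mark a mean FPKM under 1. Solid and dashed lines mark ratios of 1, 0.5 and 2. Each of the resection, Fanconi and checkpoint roles holds genes on both sides of 1.

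Fanconi genes had a median log2 difference of 0.16 over 6 measured of 8. Of the 6 intervals, 4 lay above 1 (66.7%, against 32.8% of all genes), 1 below (16.7%, against 33.2%) and 1 held 1. Among the core complex, which ubiquitinates the FANCD2-FANCI clamp, FANCA stood at 4.63 FPKM with DMSO and 6.48 FPKM with JNJ-7706621, a ratio of 1.40 (1.29 to 1.52). FANCG, a scaffold subunit, stood at 8.75 and 9.73 FPKM (1.00 to 1.23, the lower bound just over 1), and FANCC at 2.49 and 2.44 FPKM (0.885 to 1.09). FANCB, a subunit of the catalytic module, was low at 0.321 and 0.634 FPKM, a ratio of 1.97 (1.22 to 3.27) on 27 and 52 reads. FANCM, the motor that anchors the core to DNA, stood at 0.757 and 0.853 FPKM (0.898 to 1.42). Of the clamp itself, FANCD2 went from 3.5 to 5.26 FPKM, a ratio of 1.5 (1.36 to 1.66), and FANCI from 11.5 to 13.2 FPKM, a ratio of 1.14 (1.08 to 1.21). The interval of FANCD2 lies above that of FANCI, its partner in an equimolar clamp. BRIP1, the helicase that binds BRCA1, was lower, at 1.43 FPKM with DMSO and 1.05 FPKM with JNJ-7706621, a ratio of 0.734 (0.607 to 0.887). Exons of ZNF276 on the opposite strand overlap 23.6% of FANCA. ZNF276 stood at 5.07 and 4.59 FPKM, and its part in the FANCA value was not tested.

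Checkpoint genes lay on both sides, with ATR and its activator lower and the 4 others higher. ATR (chr3:142449235-142578826), the kinase that senses stalled forks, stood at 1.4 FPKM with DMSO and 0.859 FPKM with JNJ-7706621, a ratio of 0.613 (0.549 to 0.683) on 893 and 534 reads. Exons of AC109992.1 on the opposite strand overlap 16.4% of the exon length of ATR. AC109992.1 stood at 0.313 and 0.449 FPKM, and its part in the ATR value was not tested. TOPBP1, the activator of ATR, stood at 4.31 and 3.05 FPKM, a ratio of 0.706 (0.630 to 0.791). ATRIP, the partner that brings ATR to single-stranded DNA, was higher, at 1.41 and 2.24 FPKM, a ratio of 1.59 (1.31 to 1.92), although exons of TREX1 on the same strand cover 27.9% of its length. TREX1 was listed at 0 FPKM in both libraries, and its part in the ATRIP value was not tested. Downstream of ATR, CHEK1, the effector kinase, went from 5.41 to 8.46 FPKM, a ratio of 1.56 (1.41 to 1.73). CLSPN, the adaptor that presents CHEK1 to ATR, went from 0.727 to 1.2 FPKM, a ratio of 1.65 (1.35 to 2.02). TIMELESS, a fork protection factor, went from 13.3 to 19.8 FPKM, a ratio of 1.48 (1.40 to 1.57). The exon length recovered for ATR was 27234 bases, more than the 12496 bases annotated in GENCODE 29, so its FPKM level rests on a longer gene model, as does that of CLSPN (9591 against 5411 bases). With the trend of the difference with exon length taken off, the log2 difference of ATR went from -0.37 to -0.20, and to -0.13 with GC content taken off too. It was -0.52 after rescaling to a sum of 1000000, -0.49 with a pseudocount of 0.5 and -0.65 with one of 0.1.

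The kinases that keep CDKs inactive by phosphorylation were both higher. WEE1, the nuclear kinase, stood at 2.25 FPKM with DMSO and 3.25 FPKM with JNJ-7706621, a ratio of 1.44 (1.28 to 1.62). PKMYT1, its membrane-bound relative, stood at 9.14 and 10.9 FPKM, a ratio of 1.20 (1.10 to 1.30), with 31.6% of its exon length overlapped by other genes. The phosphatases that oppose them were higher too. CDC25A stood at 1.76 FPKM with DMSO and 6.37 FPKM with JNJ-7706621, a ratio of 3.61 (3.04 to 4.30). CDC25B stood at 57.7 and 97.3 FPKM, and CDC25C had a ratio of 1.31 (1.14 to 1.5). CDC25A was named because it passed the 2-fold rule, and CDC25B and CDC25C after their values were seen. Of all measured genes with recovered reads, 32.8% had an interval above 1.

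The wider list of 59 other genes of the same pathways also held both directions. Of 53 measured, 37 lay above 0 (69.8%, against 49.6% of all genes), with a median of 0.13. Their intervals lay above 1 in 26 (49.1%, against 32.8% of all genes) and below 1 in 14 (26.4%, against 33.2%). CDC25A was the 1 gene called higher (1.89%, against 2.39% of all genes), and 0 were called lower, against 1.36%. The most negative log2 differences were those of ATM at -0.55 and BRCC3 at -0.46. ATM, the kinase that senses double-strand breaks, stood at 2.16 FPKM with DMSO and 1.17 FPKM with JNJ-7706621, a ratio of 0.540 (0.490 to 0.594), in the same direction as ATR. Within the Fanconi part of that list the median was 0.00 (0.0030) over 13 genes. There, 3 intervals lay above 1 (23.1%, against 32.8% of all genes) and 6 below (46.2%, against 33.2%). The recombination part had a median of 0.20 over 27 genes, with 15 intervals above 1 (55.6%) and 4 below (14.8%). The checkpoint part had one of 0.33 over 13 genes, with 8 above (61.5%) and 4 below (30.8%).

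Other repair routes and DNA replication were read from lists in the same way. End joining genes, which rejoin broken ends without a template, had a median of 0.00 (-0.0022) over 17 measured. Their intervals lay above 1 in 3 (17.6%, against 32.8% of all genes) and below 1 in 8 (47.1%, against 33.2%). Mismatch repair genes had a median of 0.16 over 7, with 5 intervals above 1 (71.4%) and 1 below (14.3%). Excision repair genes had one of 0.00 (-0.00054) over 23, with 9 above (39.1%) and 6 below (26.1%). DNA replication and G1/S genes had a median of 0.62 over 48, with 47 above 0 and 44 intervals above 1 (91.7%, against 32.8% of all genes). Called higher were 8 of them (16.7%, against 2.39% of all genes). Among these were DSCC1, GINS2, ORC6, GINS4, MCM10, MCM2 and CCNE1, with log2 differences from 1.02 (CCNE1) to 1.32 (DSCC1). These are counts and medians of lists, whose genes are not replicates, and no difference between lists was tested.

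**Figure D4:**
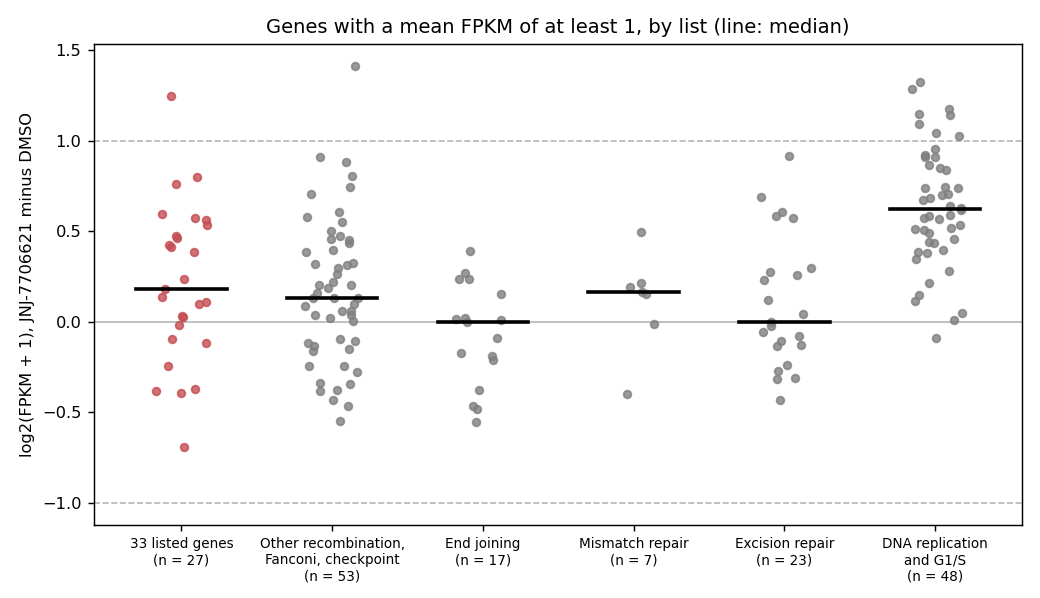
Log2 difference (JNJ-7706621 minus DMSO, on log2(FPKM + 1)) of each gene that passes the filter of 1 FPKM, by list, with the median as a line and the 2-fold rule as dashed lines. The genes described here spread from -0.69 to 1.25 around 0.18, while end joining and excision repair have medians of 0.00, mismatch repair 0.16 and the replication list 0.62.

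The 5 lower genes had long genomic spans, and other long genes were higher. The 5 genes with an interval below 1 spanned 64.2 to 228 kb on GRCh38 (median 130 kb), while the 19 with an interval above 1 had a median span of 43.0 kb and protein-coding genes one of 31.7 kb. Among measured genes with spans of 53.6 kb or more, the longest of 3 equal bins of protein-coding genes, 6 of 12 lay above 0, against 10 of 12 in the middle bin and 3 of 3 in the shortest. Over all protein-coding genes these shares were 43.5%, 55.2% and 51.5%. A cut at 64.2 kb, the span of TOPBP1 as the shortest of the 5 lower genes, holds all 5 by construction. Of the 16 genes of that span or more, the others were 5 with an interval that held 1 and 6 with one above 1. These 6 were RMI2 (132 kb), RAD54B (103 kb), BARD1 (84.1 kb), FANCA (79.1 kb), FANCD2 (75.5 kb) and FANCI (73.3 kb). Across the 27 measured genes Spearman's rho of the difference was -0.31 with span and 0.39 with the GC content of the longest transcript, and across 10162 protein-coding genes -0.08 and 0.11. All points share the same 2 libraries, span and GC content were not separated from each other here, and the part of these features in the differences was not tested.

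**Figure D5:**
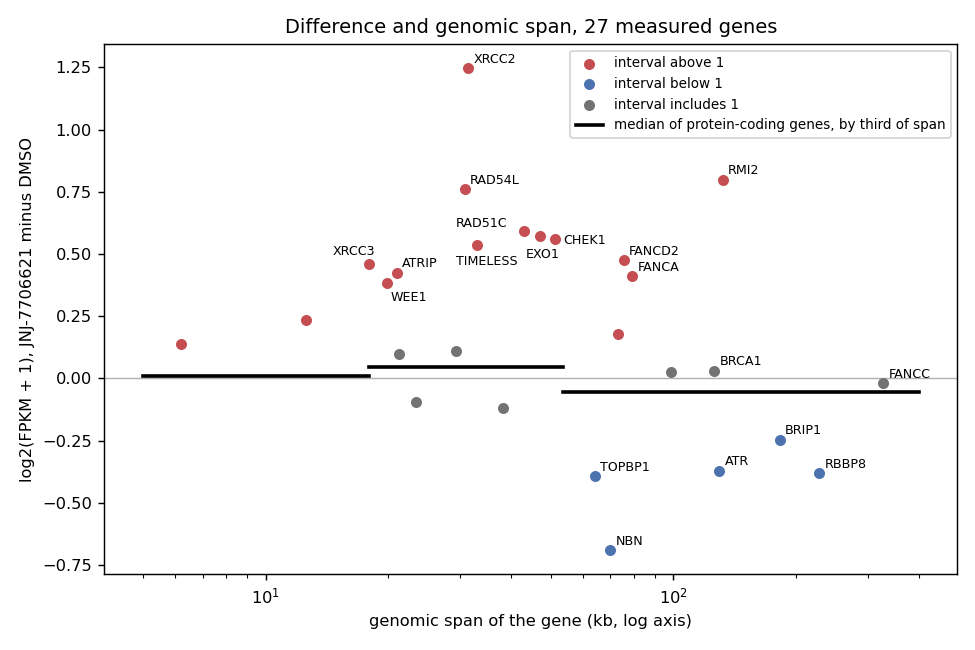
Log2 difference (JNJ-7706621 minus DMSO, on log2(FPKM + 1)) of the 27 measured genes against genomic span (kb, log axis). Black lines are medians of all protein-coding genes in each of 3 equal bins of span, drawn within the axis. The 5 genes with an interval below 1 (blue) lie at 64.2 kb or more, a cut set at the shortest of them. At that span or more 6 of the 12 measured genes lie above 0: RMI2, FANCD2, FANCA, FANCI, BRCA1 and BLM.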

How the data were processed

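RNA sequencing of 2 cultures, 1 per group by the sample labels, was analysed. The authors deposited FPKM values per gene. The submitters' processing notes name hg38 and edgeR without a role, and which aligner, counter, annotation and strand setting were used is not given in the sources used here. Of the 4 value columns, 2 match no sample label used here and were left out.

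Library totals and exon lengths that make FPKM x length x total a whole number (within 0.0001 reads) were recovered from the deposited FPKM values with GENCODE 29. They fit 27805 of 28014 genes above 0, and 15 of the 33 genes have their annotated length. Other lengths were the nearest fitting ones within 0.25 to 4 times the annotated length. No count test was run. Differences are of log2(FPKM + 1), with the filters given in the report. Where a symbol has several rows, the one with the highest mean was used. All 33 genes are named. Of the comparison lists, called genes and the 2 most positive and 2 most negative are named, with exceptions stated and a few genes not reported here. The members and lists were chosen with earlier results of these data known. Only the counting interval and the 2-fold rule were tested on simulated data (Python 3.11.15, SciPy 1.17.1, statsmodels 0.14.6). The simulation held counting error alone, at the recovered lengths and totals, without spread between cultures. Recovery of reads, removal of trends and the motif search were not part of it.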

Additional observations from a re-analysis of the deposited data

How the results depend on the processing

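No paired analysis was possible because each group is 1 library, and for the same reason no replicate could be left out. XRCC2 was the 1 gene called higher and 0 were called lower with pseudocounts of 0.1 and 0.5, with rescaling to a sum of 1000000, centring on the median of all genes, no filter, a filter at a mean FPKM of 5, the trend with exon length taken off, the trend with exon length and GC content taken off (chosen after seeing the data), and without genes whose exons overlap others by over 10%. At 1.5-fold the counts were 4 and 1. The median of the measured genes lay between 0.11 (without overlapped genes) and 0.21 in these settings, except that the filter at a mean FPKM of 5 left 12 genes with a median of 0.47 and 11 above 0. That filter kept fewer and more abundant genes. It uses the mean of both libraries, so the difference itself bears on which genes pass. XRCC2 (3.3 FPKM with DMSO and 9.21 with JNJ-7706621) passed it, while RBBP8 (5.69 and 4.13 FPKM) did not. The part of either in the median was not tested. The replication list had a median of 0.68 with a pseudocount of 0.1. FANCC changed sign, from -0.02 to 0.08, with the length trend taken off, and no other gene did under these settings beside the further GC step. There it stood at 0.00 (0.00048). Genes under about 1 FPKM rest on few reads, with 10 in DMSO for RAD54B and 27 for FANCB, and their ratios are the least precise.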

Other observations

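Genes of excision repair, outside the pathways above, also held both directions. UNG, the glycosylase that removes uracil from replicated DNA, stood at 19.9 FPKM with DMSO and 38.5 FPKM with JNJ-7706621, a ratio of 1.93 (1.80 to 2.08). DDB2, a damage sensor and a known target of p53, stood at 13.3 and 22.1 FPKM, a ratio of 1.66 (1.56 to 1.77). On the other side were NEIL1, a glycosylase for oxidised bases, with a ratio of 0.645 (0.552 to 0.751), and APEX1, the main abasic site nuclease, at 152.6 and 122.4 FPKM, a ratio of 0.802 (0.774 to 0.832). In mismatch repair PMS2 had a log2 difference of 0.50, while MSH3 had -0.40 and PMS1 -0.01. In end joining PARP1 had 0.39 and SHLD1 0.27, against -0.55 in POLM and -0.48 in SHLD2.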
